A study of Mus musculus with 35 samples.

Results

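The resting transcriptome of the whole lung was described from the normoxic Control mice of a study on caveolin-1 and pulmonary hypertension. The 6 libraries are all the samples labelled as Control and kept in normoxia, of 35 samples in the series. The Control mice were wildtype animals of the B6/129SJ2 background, carrying no caveolin-1 deletion and no transgene, at least 3 months old, and held in room air for 6 weeks. There were 3 females and 3 males, each library being the poly-A RNA of the lung of 1 mouse, and they were treated as 1 set of 6 animals with no comparison between the sexes. Abundance is given as FPKM, the fragments counted for a gene divided by its length and by the depth of the library, so that levels can be compared between genes. Values are the mean ± SD over the 6 libraries (n = 6) unless a range is given, and the coefficient of variation (CV) is the SD as a percent of the mean.

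The lung exchanges gas across a sheet of flat alveolar type 1 cells lying against capillary endothelium, and cuboidal alveolar type 2 cells keep that surface open by secreting surfactant lipid and its proteins. The conducting airways are lined by secretory club cells, which release secretoglobins and detoxify inhaled compounds, and by ciliated cells, which move mucus outward. Fibroblasts, pericytes, smooth muscle, macrophages and circulating blood cells make up the rest, and a whole-lung library mixes the RNA of all of them. In such a library fewer cells of a type and less RNA per cell cannot be told apart.

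The libraries held 14037441 to 21724288 counted fragments, with a median of 19103027, and counting noise at these depths corresponded to a median CV of 4.37% for genes at a mean of at least 1 FPKM. Female replicate 1 stood apart from the other 5. Its rank correlation with the others across genes was 0.847 to 0.921, against 0.938 to 0.979 among the other 5. It was the highest of the 6 libraries for 36.4% and the lowest for 35.8% of the 14581 genes at a mean of at least 1 FPKM. It was the highest for 77 of 82 ribosomal protein genes, and its level of the adult beta globin Hbb-bs was 59.2 FPKM where the others had 953 to 1712. The main results that rest on it are given with and without it. Sex-linked genes matched the labels: Xist, which silences an X chromosome in female cells, lay between 23.4 and 50.6 FPKM in the females and between 0.082 and 0.221 in the males, and the Y-linked helicase Ddx3y between 0 and 0.198 in the females and 20.5 and 22.1 in the males.

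FPKM also shifted with gene length between the libraries. For the 5050 protein-coding genes at a mean of at least 10 FPKM, each library's level was divided by the gene's mean over the 6. For the genes under 1000 bases the median of this ratio was 1.53 in female replicate 1, 0.979 and 0.801 in female replicates 2 and 3, and 0.734, 0.992 and 0.936 in male replicates 1, 2 and 3. For the 479 genes of at least 8000 bases the order turned round, with 0.771 in female replicate 1, 0.969 and 1.19 in female replicates 2 and 3, and 1.15, 0.922 and 0.969 in male replicates 1, 2 and 3. Female replicate 1 thus read high for short genes and low for long ones, and female replicate 3 and male replicate 1 the reverse. These shifts accompany several of the spreads below, and their part in each was not tested.

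The 100 bases before the start of 6 abundant lung genes are shown because their promoters differ in a simple feature, the TATA box at which the transcription machinery assembles. Each is from RefSeq on GRCm38.p6, the assembly of the mm10 coordinates in the tables, and is written 5′ to 3′ on the gene's strand. Scgb1a1 and Sftpc had no row in the promoter table. The RefSeq start was that of the count table for Sftpb and lay downstream of it for the others, by 6 bases for Sftpa1, 46 for Cyp2f2, 49 for Lyz2, 93 for Cbr2 and 168 for Hbb-bs. The window of Cbr2 thus lies mostly, and that of Hbb-bs wholly, inside the gene as the count table bounds it. Capitals mark TATAA lying wholly in the stretch from 40 bases before the start up to, but not including, 20 bases before it. They also mark CTCAAG on either strand, the core of the recognition sequence of NKX2-1, the homeodomain factor of lung epithelium. The positions are chr6:72304510-72304609 on the plus strand for Sftpb, chr14:41131688-41131787 on the plus strand for Sftpa1, chr11:120732022-120732121 on the minus strand for Cbr2, chr7:27119855-27119954 on the plus strand for Cyp2f2, chr10:117282273-117282372 on the minus strand for Lyz2 and chr7:103827929-103828028 on the minus strand for Hbb-bs.
Sftpb: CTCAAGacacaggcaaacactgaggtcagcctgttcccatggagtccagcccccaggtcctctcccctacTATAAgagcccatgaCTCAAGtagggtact
Sftpa1: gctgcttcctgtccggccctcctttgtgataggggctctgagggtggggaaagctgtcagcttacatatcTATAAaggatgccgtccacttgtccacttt
Cbr2: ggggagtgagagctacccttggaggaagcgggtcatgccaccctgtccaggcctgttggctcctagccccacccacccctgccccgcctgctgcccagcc
Cyp2f2: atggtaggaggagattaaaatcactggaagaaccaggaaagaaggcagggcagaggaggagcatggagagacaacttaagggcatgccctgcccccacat
Lyz2: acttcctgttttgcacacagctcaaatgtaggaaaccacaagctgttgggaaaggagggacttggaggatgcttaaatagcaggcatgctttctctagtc
Hbb-bs: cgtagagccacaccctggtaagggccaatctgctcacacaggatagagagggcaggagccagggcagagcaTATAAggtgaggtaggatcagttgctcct

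TATAA was present in the surfactant genes Sftpb and Sftpa1 and in Hbb-bs, and was not found in the windows of Cbr2, Cyp2f2 and Lyz2. Sftpb alone of the 6 held CTCAAG in the bases shown, in 2 copies. Over the 16492 protein-coding genes with a promoter row, 4.311% held TATAA in this place. The share followed abundance unevenly: it was 7.466% of genes under 1 FPKM, 1.889% from 1 to under 10 FPKM, 2.117% from 10 to under 100 FPKM and 10.34% at 100 FPKM or more, where it was 27 of 261 genes. Among the marker lists below, 4 of 9 alveolar type 2 genes, 0 of 8 alveolar type 1 genes and 0 of 5 club cell genes with a row held it. CTCAAG within 250 bases before the start was about as frequent at every level, in 13.22% of all genes and 12.26% of those at 100 FPKM or more. A match says only that these letters are in the window.

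Of 54532 genes in the tables, 14581 had a mean of at least 1 FPKM, 5367 of at least 10, 384 of at least 100 and 25 of at least 1000. Detection was steady, with 14170 to 14660 genes at 1 FPKM or more per library, 12786 of them in every library and 16346 in at least 1. No fragment was counted in any library for 23413 genes. Protein-coding genes made up 12604 of the 14581 and held 92.8 ± 1.69% of the summed FPKM. The odorant receptors, a family of olfactory neurons, were at the other end: 2 of 1135 protein-coding Olfr genes reached 1 FPKM and 996 had no fragment, and 0 protein-coding vomeronasal receptor genes did, 287 of them with no fragment.

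The most abundant transcripts were a club cell and a type 2 cell secretory product. Scgb1a1, the secretoglobin of club cells, was first in all 6 libraries at 74152 ± 31083 FPKM. It ran from 39033 through a median of 76522 to 121251 FPKM, lowest in male replicate 1 and female replicate 3 and highest in female replicate 1, and its CV was 41.9%, or 36.0% without female replicate 1. Sftpc, the surfactant protein made only by type 2 cells, was second in all 6 libraries at 14057 ± 2911 FPKM. Its 5 other libraries lay between 11887 and 14979 FPKM and female replicate 1 at 19548, so that its CV fell from 20.7% to 9.60% without that library. As a share of a library's summed FPKM, Sftpc was not highest there, with 3.95% in female replicate 1 and 3.03% to 3.96% in the others.

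Other products of airway and alveolar cells were also among the first 30. Cbr2, a carbonyl reductase of mouse airways, had 4149.7 ± 1048 FPKM, and Cyp2f2, the cytochrome P450 that activates naphthalene in club cells, stood at 1575 ± 539 FPKM. Sftpb, which spreads the surfactant film, was at 1513 ± 145 FPKM with 1321 to 1731 over the libraries, and the collectin Sftpa1 at 938 ± 132. Scgb3a2, another airway secretoglobin, was at 1317 ± 715 FPKM with a range of 619 to 2555. Haptoglobin, Hp, which binds free hemoglobin and is made in the airway, was at 915 ± 321.9 FPKM. Scgb3a2 and Hp had their lowest levels in the same 2 libraries as Scgb1a1, female replicate 3 and male replicate 1, while Sftpb and Sftpa1 had their highest there.

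Other lung and general genes had places among the first 30 as well. Lyz2, the lysozyme of macrophages and type 2 cells, was at 3040.2 ± 538 FPKM, and Inmt, an indolethylamine methyltransferase of lung fibroblasts, at 1211 ± 240. Gelsolin, Gsn, which severs actin filaments, had 1097 ± 111 FPKM, and Mgp, an inhibitor of calcification, 935 ± 249. The ferritin heavy chain Fth1 had 2135 ± 268 FPKM, the actin-binding peptide Tmsb4x 1984 ± 727, the elongation factor Eef1a1 1516 ± 131 and beta-actin, Actb, 869 ± 230. The antigen-presentation genes B2m and Cd74 stood at 1040.5 ± 282 and 1005 ± 189 FPKM. The ribosomal protein genes Rplp1 at 1888 ± 653 FPKM and Rps3a1 at 862 ± 276 were highest in female replicate 1. Without that library the CV of 14 of the first 30 genes was smaller by over 1.5 times, as for Tmsb4x at 1704 ± 267, Mgp at 835 ± 53.6 and Rplp1 at 1628 ± 164 FPKM (n = 5).

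**Figure D1:**
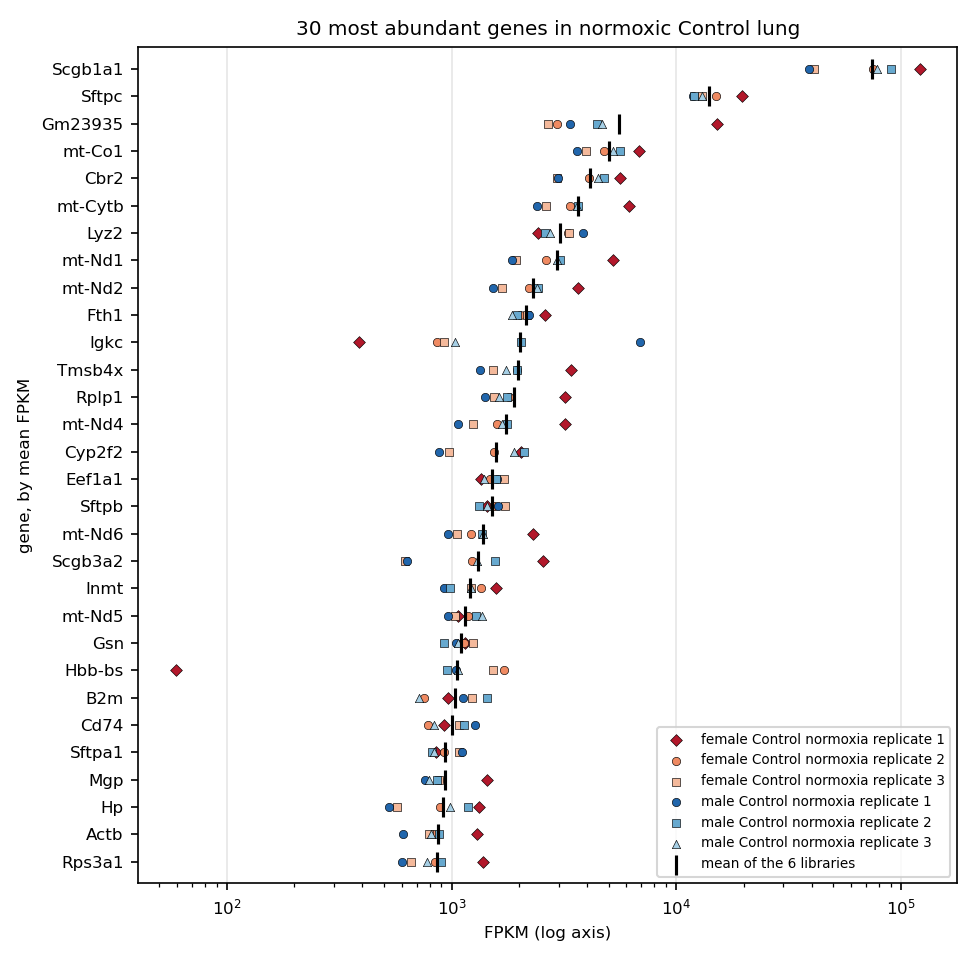
FPKM (log axis) of the 30 genes of highest mean in each of the 6 normoxic Control libraries, with a bar at each mean. Scgb1a1 lies apart at 39033 to 121251 FPKM, while Hbb-bs has 1 library at 59.2 and Igkc 1 at 6887 FPKM, far from their other values.

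Of the mitochondrial genes, 7 were among the first 30, from mt-Co1, a cytochrome oxidase subunit, at 5019.8 ± 1167 FPKM to mt-Nd5, a complex I subunit, at 1149.9 ± 155. The other 6 of the 13 mitochondrial protein-coding genes read far lower, with mt-Co2 at 103 ± 84.6, mt-Atp6 at 66.7 ± 32.9 and mt-Co3 at 34.4 ± 16.5 FPKM. For these 3, 99.5%, 99.5% and 99.9% of the 100-base windows of the transcript recurred in another annotated gene, and the share was 97.6% for mt-Nd3 and 98.5% for mt-Nd4l. The split was not clean: of the 7 high genes, mt-Nd4 shared 60.8%, mt-Co1 30.8% and mt-Nd2 3.19% of its windows and the other 4 shared 0%, while mt-Atp8 was low at 3.71 FPKM and also shared 0%. By the stated counting, fragments matching several places were left out, and the levels of all the mitochondrial genes with shared windows, mt-Co1 and mt-Nd4 included, are uncertain. The adult globins share sequence in the same way, with 62.6% of windows for Hbb-bs and 74.5% for Hba-a2.

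Next to Scgb1a1 and Sftpc in mean FPKM was Gm23935, a 57-base locus annotated as a microRNA on chromosome 16 (11144125 to 11144181, plus strand), at 5551 ± 4786 FPKM. It had 15183 FPKM in female replicate 1 and 2693 to 4667 in the others, and its CV of 86.2% fell to 24.6% without that library. Its rank rested on it too: without female replicate 1 its mean was 3625 FPKM, at rank 5 behind mt-Co1 and Cbr2. At this length few fragments give a high FPKM: the microRNA class held 1.56% of the summed FPKM and 0.0399% of the counts. By count the highest 5 were Scgb1a1, Sftpc, mt-Co1, Cbr2 and mt-Cytb. Igkc, the kappa light chain constant region made by B and plasma cells, had the largest CV of the first 30, 121%, at 2024 ± 2443 FPKM and 387 to 6887 over the libraries. Without male replicate 1, its highest library, the mean was 1051 FPKM and the CV 57.6%.

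Among the other gene types, the abundant members were few. The long noncoding RNAs Neat1 and Malat1, both retained in the nucleus, were at 110 ± 44.9 and 87.8 ± 31.4 FPKM, and AU020206 at 93.7 ± 27.0. Fendrr, the noncoding neighbour of the lung mesenchyme gene Foxf1, was the highest processed transcript at 88.6 ± 26.2 FPKM, and the antisense gene AU040972 reached 65.0 ± 29.5. Reads were counted without regard to strand, and those over more than 1 gene were left out, so the levels of antisense genes are uncertain. Processed pseudogenes held 2.26% of the summed FPKM, led by Gm14303 with 317 to 739.9 FPKM. All 72 windows of Gm14303 recur in the ribosomal protein gene Rps29, yet 850 to 2705 fragments per library were counted for it, so its level is uncertain as well.

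Expression was concentrated in few genes when length was taken into account. The first 10 genes by mean held 29.6 ± 6.43% of the summed FPKM, the first 100 held 44.0 ± 5.92% and the first 1000 held 66.1 ± 4.21%. Scgb1a1 alone held 18.6 ± 5.48%, from 11.6% in male replicate 1 to 24.5% in female replicate 1. Because its annotated length is 476 bases, its share of counted fragments was lower, at 3.66 ± 1.49%. Of the counts, the first 10 genes held 8.15 ± 2.30% and the first 1000 held 41.2 ± 2.89%. Reaching 50% of the FPKM took 68 to 372 genes depending on the library, and 50% of the counts 964 to 1238 genes. The library with the highest Scgb1a1, female replicate 1, was the one that needed 68, and without it the range was 142 to 372.

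**Figure D2:**
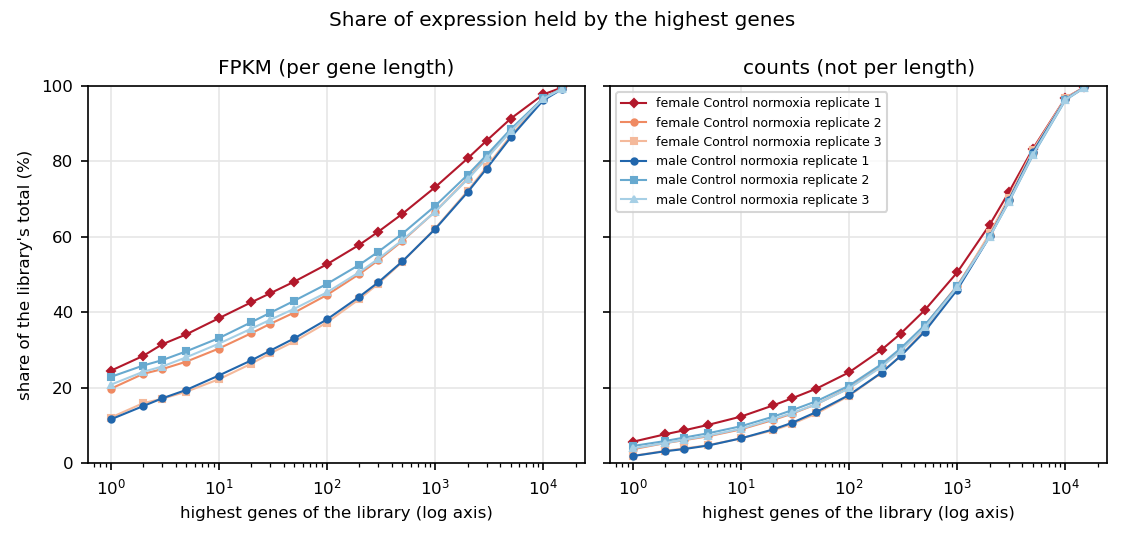
Cumulative share (percent) of each library's summed FPKM (left) and of its counts (right) held by its most abundant genes, against the number of genes on a log axis, 1 line per library. The libraries spread between 68 and 372 genes at 50% of the FPKM and between 964 and 1238 genes at 50% of the counts.

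Markers of 41 cell types and tissues were then set in order by the median of their members' mean FPKM. Of 399 marker genes, 398 were in the tables. The club cell list came first at 1116 FPKM, followed by alveolar type 2 cells at 176, pan-endothelial genes at 139 and alveolar type 1 cells at 100. Without female replicate 1 their order was the same, at 951, 185, 116 and 108 FPKM. In all, 16 lists had a median of at least 10 FPKM and 13 a median under 1. The defining markers of lung epithelium and endothelium were thus at high levels, as the labelled tissue has. The order is one of marker abundance, not of cell number, because markers differ in transcripts per cell.

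**Figure D3:**
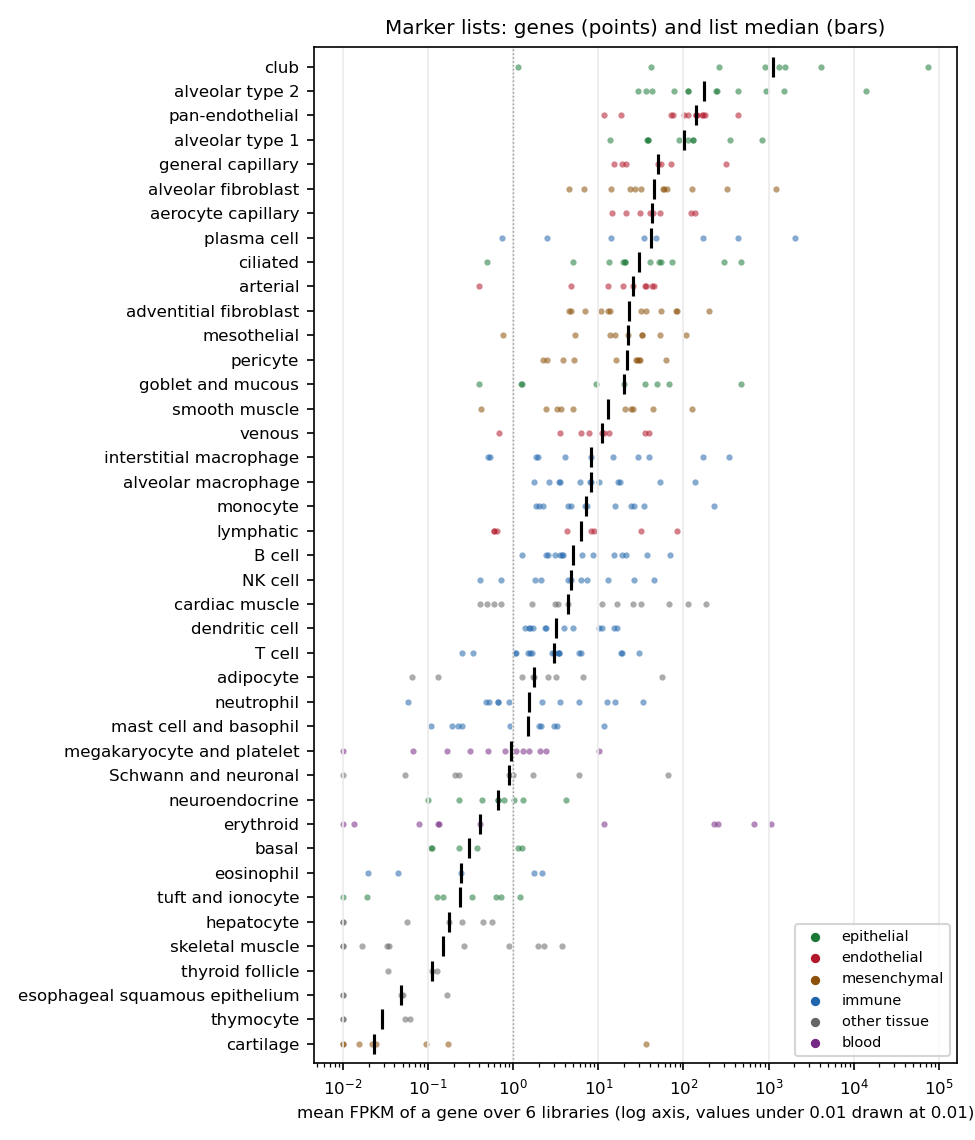
Mean FPKM (log axis) of every gene in the 41 cell type lists, in order of the list median (bars). Club cell genes lead with a median of 1116 FPKM, and the dotted line marks 1 FPKM, below which the median of 13 lists lies. Values under 0.01 are drawn at 0.01.

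All 12 type 2 genes exceeded 10 FPKM and 8 exceeded 100. Besides the surfactant genes, the chemokine Cxcl15 had 437 ± 81.6 FPKM, the sodium-phosphate transporter Slc34a2 240 ± 103 and the mucin Muc1 112 ± 4.22. Abca3, the lipid transporter of lamellar bodies, was lowest at 29.5 ± 9.45 FPKM, from 15.4 to 41.7. The list's sum varied by 15.9% over the libraries, and by 7.88% without female replicate 1. Within the list the members did not move together: Sftpc, Napsa, Cxcl15 and Muc1 were highest in female replicate 1, and Lamp3, Abca3, Slc34a2 and Sftpd lowest there. Muc1 was among the steadiest markers of any list, with 106 to 118 FPKM and a CV of 3.75%.

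The 10 type 1 genes all exceeded 10 FPKM. Ager, the receptor for advanced glycation end products, was the highest at 826 ± 179 FPKM and ran from 579 to 1107. Hopx, a homeodomain protein that binds no DNA, had 354 ± 72.9, the water channel Aqp5 129 ± 17.5 and Igfbp2 128 ± 12.7 FPKM. The rhotekin gene Rtkn2 was at 38.5 ± 6.88. The lowest member, Col4a3, a collagen chain of the alveolar basement membrane, was at 13.7 ± 9.69 FPKM and varied most, from 5.93 to 26.7, with its 2 highest values in female replicate 3 and male replicate 1. Emp2 and Clic5 had their 2 highest values in the same libraries, at 195 and 163 and at 142 and 139 FPKM.

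The club cell list held 20.7% of all FPKM, of which Scgb1a1 was nearly the whole. Its sum was 133065 in female replicate 1, 82772 and 46448 in female replicates 2 and 3, and 44370, 100486 and 87317 in male replicates 1, 2 and 3, a CV of 40.8% or 35.1% without female replicate 1. The same order held for a member of middling level, the chloride channel subunit Gabrp, only in part: at 41.1 ± 12.9 FPKM it was lowest in male replicate 1 and female replicate 3, but highest in male replicate 2. Aldh1a1, a retinaldehyde dehydrogenase, varied less, with 260 ± 34.6 FPKM and a CV of 13.3%. The uroplakin Upk3a marks a minor subset of club cells and was at 1.14 ± 0.561 FPKM. The club genes thus spanned 1.14 to 74152 FPKM.

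Mucous cell genes were lower, with a list median of 19.9 FPKM. Scgb3a1, a secretoglobin of larger airways, had 479 ± 301.8 FPKM, and the gel-forming mucins Muc5b and Muc5ac 9.36 ± 3.07 and 0.398 ± 0.148. Bpifb1 and Bpifa1, secreted defence proteins of the upper airway, were at 48.5 ± 38.3 and 67.03 ± 92.6 FPKM. The Bpifa1 level was 253 in female replicate 1 and 5.55 to 52.1 in the others. The summed CV of the list was 66.6%, and 49.9% without that library, among the widest of the epithelial lists.

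Ciliated cell genes had a median of 30.3 FPKM. Tppp3, a tubulin-binding protein, was at 303 ± 64.9 FPKM, Foxj1, the master factor of motile cilia, at 54.5 ± 11.8, and Ccdc153 at 51.8 ± 19.8. Sec14l3, a lipid-binding protein of ciliated airway cells, was the highest at 479 ± 161 FPKM, with 158 in female replicate 1 and 504 to 589 in the other 5. It was lowest in female replicate 1, as was the dynein gene Dnah5, while 8 of 12 members were highest there, against 36.4% of all genes. The list's sum varied by 5.99% although its members had a median CV of 35.8%. Mcidas, which starts ciliogenesis, was lowest at 0.494 ± 0.122 FPKM.

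The rare epithelial types had low marker levels. Basal cell genes had a median of 0.299 FPKM, with Krt5 at 0.370 ± 0.296, Trp63 at 0.108 ± 0.0308 and Krt15 highest at 1.25 ± 0.980. Neuroendocrine genes had a median of 0.663 FPKM, with the neuropeptide gene Calca at 0.781 ± 0.232 and Uchl1 highest at 4.12 ± 0.761. Tuft cell and ionocyte genes had a median of 0.238 FPKM, with the chloride channel Cftr highest at 1.19 ± 0.278, and no fragment was counted for Foxi1 in any library. These levels are those of a whole lung and do not set a level per cell.

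All 13 pan-endothelial genes exceeded 10 FPKM. Their summed CV was 13.8%, and the median CV of the members was 20.5%. The tight-junction gene Cldn5 led with 432 ± 93.2 FPKM, followed by the TGF-beta co-receptor Eng at 178 ± 43.7 and Calcrl, an adrenomedullin receptor subunit, at 168 ± 46.0. The adhesion molecules Cdh5 and Pecam1 were at 163 ± 47.8 and 114 ± 23.3 FPKM. Acvrl1, a BMP9 receptor, was at 143 ± 25.3 FPKM. The sialomucin Emcn was the lowest at 11.6 ± 2.33.

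General capillary genes had a median of 50.03 FPKM and aerocyte genes, those of the large capillary cell of gas exchange, 42.4. Plvap, which forms the diaphragms of caveolae, reached 318 ± 70.9 FPKM, the lipase anchor Gpihbp1 72.2 ± 21.04 and the apelin receptor Aplnr 15.4 ± 3.38. Of the aerocyte genes, Tbx2 had 138 ± 39.9 FPKM, the carbonic anhydrase Car4 124 ± 30.4, the endothelin receptor Ednrb 30.5 ± 6.19 and apelin, Apln, 21.2 ± 7.70. Glp1r varied most of these, from 3.73 FPKM in female replicate 1 to 34.2 in female replicate 3. Arterial genes had a median of 25.2 FPKM, venous genes 11.1 and lymphatic genes 6.21. The arterial gap junction gene Gja5 was at 12.9 ± 4.11, the venous factor Nr2f2 at 11.7 ± 1.06 and the lymphatic factor Prox1 at 0.636 ± 0.1998 FPKM.

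Among stromal lists, alveolar fibroblasts led with a median of 45.0 FPKM. Its defining factor Tcf21 was at 58.0 ± 8.92 FPKM, the collagen Col13a1 at 13.9 ± 3.29 and the integrin ligand Npnt at 127 ± 39.1. Adventitial fibroblasts had a median of 22.8 FPKM, led by Clec3b at 200 ± 53.0, and were the steadiest of the stromal lists without female replicate 1, at a summed CV of 4.18% against 10.8% with it. The medians of pericyte, mesothelial and smooth muscle genes were 21.96, 22.2 and 12.8 FPKM. The pericyte receptor Pdgfrb was at 30.7 ± 5.95, mesothelin, Msln, at 53.1 ± 17.5 and the smooth muscle actin Acta2 at 127 ± 38.5 FPKM. The smooth muscle gene Tagln read only 2.44 ± 1.07 FPKM, but 67.9% of its exon bases lie under exons of other genes, and fragments over more than 1 gene were not counted, so this level is uncertain.

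Of the immune lists, all but that of plasma cells had medians below 10 FPKM. Alveolar and interstitial macrophage genes had medians of 8.11 and 8.13 FPKM, monocyte genes 7.08, B cell genes 5.07, NK cell genes 4.80, dendritic cell genes 3.17, T cell genes 2.98, neutrophil genes 1.53 and mast cell and basophil genes 1.47. Within the macrophage lists, Chil3, a chitinase-like protein of alveolar macrophages, had 137 ± 82.3 FPKM and Apoe 343 ± 80.5, while the lectin Siglecf had 1.74 ± 0.771. The sum of the alveolar macrophage list was 133 to 454 FPKM, highest in male replicate 1 and lowest in male replicates 2 and 3. The interstitial list was more even, at 532 to 790.

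The levels of lymphoid and granulocyte markers ranged widely. The B cell receptor component Cd79a was at 20.8 ± 9.66 FPKM and the heavy chain Ighm at 70.0 ± 19.5, and the T cell receptor constant region Trbc2 at 29.8 ± 10.95 where Cd3e was at 1.47 ± 0.430. For NK cells the granzyme Gzma led at 44.8 ± 20.7 FPKM with the receptor Ncr1 at 7.34 ± 3.01. The neutrophil calgranulins S100a8 and S100a9 had 15.5 ± 6.43 and 33.5 ± 13.5 FPKM, but Ly6g, which defines neutrophils, 0.0575 ± 0.101. Of the B cell list 10 of 14 members, and of the NK cell list 9 of 11, were highest in female replicate 1, against 36.4% of all genes.

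The plasma cell list had the largest summed CV of the 41 lists, 123%, at a median of 41.1 FPKM. Within single libraries the list's median ran from 6.14 to 211 FPKM, highest in male replicate 1. Its sum was 481 FPKM in female replicate 1, 1164 and 1234 in female replicates 2 and 3, and 9427, 2682 and 1410 in male replicates 1, 2 and 3. Male replicate 1 therefore held several times the level of the others. Without it the mean sum fell from 2733 to 1394 FPKM and the CV to 57.5%, while without female replicate 1 the CV was 111%. Jchain, which joins secreted IgA and IgM, reached 630 FPKM in male replicate 1 against 21.1 to 144 elsewhere, Igha 1448 against 58.9 to 441, and Ighg1 195 against 0.756 to 8.05. The immunoglobulin genes together took 4.66% of the FPKM in that library, and 0.138% to 0.905% in the others.

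Female replicate 1 had the lowest sums of red cell and cardiac genes and the highest of adipocyte genes. Of these 3 sums only that of adipocyte genes passed Dixon's test for a library far from the others. The erythroid list, dominated by globin transcripts of circulating red cells, summed to 115 FPKM in female replicate 1 and 1855 to 3560 in the others. Hba-a1 had 27.1 FPKM there and 546 to 1049 elsewhere. Markers of red cell precursors were near 0, with Klf1 at 0.131 ± 0.0886 and Rhag at 0.00482 ± 0.0118 FPKM, and the embryonic globins Hba-x, Hbb-y and Hbb-bh1 had no fragment. Platelet genes had a median of 0.930 FPKM, with Pf4 highest at 10.2 ± 3.12.

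Cardiac muscle genes were present at a list median of 4.42 FPKM, with a sum of 197 in female replicate 1 and 295 to 722 in the others. The cardiac myosin chains Myl7 and Myh6 had 185 ± 88.8 and 68.0 ± 36.1 FPKM, and cardiac actin, Actc1, 113 ± 51.0. Nppa, the atrial natriuretic peptide, had 0.408 ± 0.441. Of these 15 genes, 14 were lowest in female replicate 1, as were 10 of the 11 erythroid genes, against 35.8% of all genes. Adipocyte genes, at a list median of 1.77 FPKM, moved the other way, with a sum of 180 FPKM in female replicate 1 and 31.8 to 74.7 in the others, led by Cfd at 152 against 20.5 to 54.2.

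The remaining lists, of eosinophils and of other tissues that could have been carried along, had medians under 1 FPKM. List medians were 0.897 FPKM for Schwann and neuronal genes, 0.244 for eosinophils, 0.175 for hepatocytes, 0.148 for skeletal muscle, 0.111 for thyroid follicles, 0.0479 for esophageal epithelium, 0.0284 for thymocytes and 0.0229 for cartilage. Single genes stood out from their lists. Of the 10 skeletal muscle genes 3 reached 1 FPKM, with Ckm highest at 3.72. Chad, a cartilage matrix protein, had 35.8 ± 12.8 FPKM while Col2a1 and Acan, which define cartilage, had 0.00844 ± 0.00885 and 0.00628 ± 0.0101. The sodium channel Scn7a had 66.4 ± 16.5 FPKM and Sox10, which defines Schwann cells, 0.230 ± 0.0699.

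**Figure D4:**
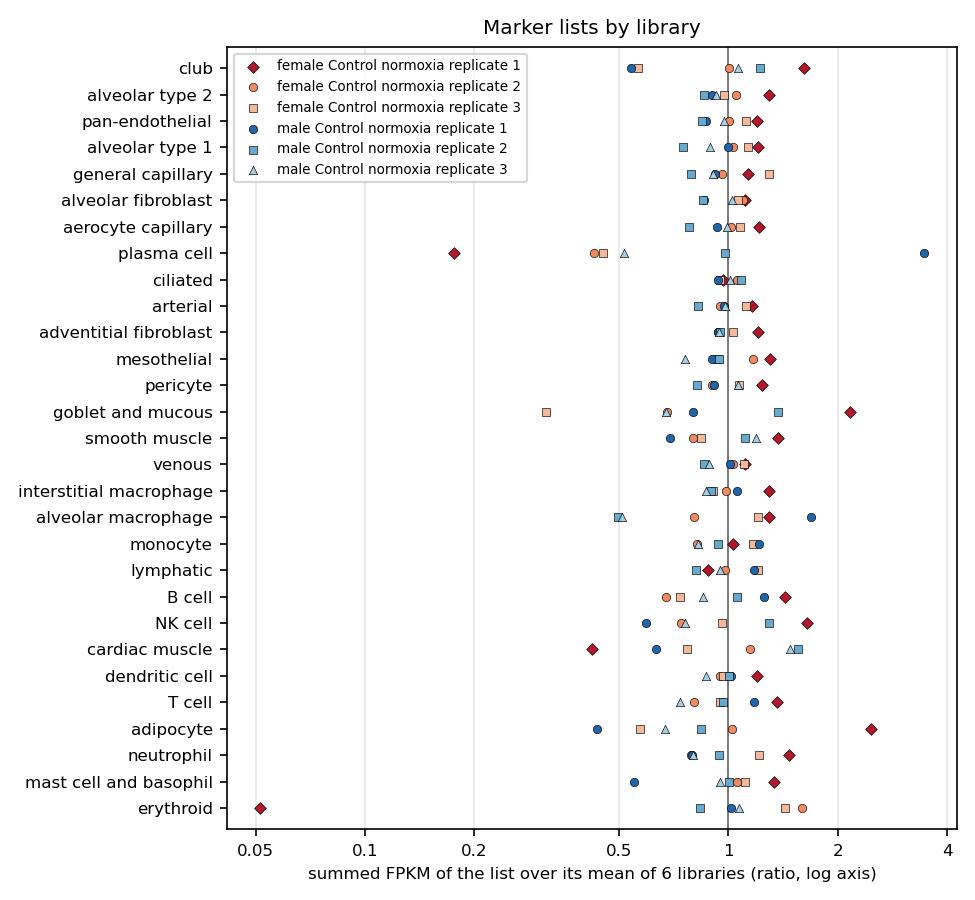
Summed FPKM of each cell type list in each library, divided by the list's mean over the 6 libraries, for the lists with a median of at least 1 FPKM and the erythroid list. The plasma cell list reaches far above the rest in male replicate 1, and the erythroid list in female replicate 1 falls to 115 against 1855 to 3560 FPKM.

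Across the 41 lists the median CV of the sum was 22.05%. It was under 15% for 8 lists and over 50% for 6. Without female replicate 1 the median was 19.03%, with 12 lists under 15% and 4 over 50%. Female replicate 1 had the highest sum for 28 lists and the lowest for 5, and its total FPKM was 494513 against 335463 to 395338 in the others. FPKM does not hold that total equal between libraries.

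The 24 transcription factors of lung identity had a median of 18.2 FPKM. Their summed CV was 8.05%, or 5.20% without female replicate 3, but Epas1 alone made up 38.4% of the sum, and the median CV of the members was 16.6%. For comparison, the surfactant proteins had a summed CV of 16.96%, or 8.17% without female replicate 1, and a median member CV of 14.02%, and the difference was not tested. Nkx2-1 was at 90.7 ± 8.66 FPKM with 80.6 to 103 over the libraries, Foxa1 at 17.6 ± 2.70, Foxa2 at 18.9 ± 2.30 and Cebpa, needed for surfactant synthesis, at 66.5 ± 7.57. The airway factor Sox2 was at 13.1 ± 3.13 FPKM, and Sox9, which marks the distal tips of the embryonic lung, at 0.342 ± 0.0743. Foxp2 had the smallest CV of the list, 3.64%, at 0.902 ± 0.0328 FPKM. In the mesenchyme, Foxf1 was at 132 ± 33.5, Tbx4 at 29.8 ± 3.73 and Tbx5 at 10.5 ± 2.34 FPKM.

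The endothelial factors Epas1 and Klf2 had the highest levels of the 24, and the other endothelial ones lay among the rest. Epas1, the hypoxia-inducible factor HIF-2 alpha, was at 538 ± 75.9 FPKM, from 440 to 642. Klf2, which responds to blood flow, had 179 ± 57.7, with 64.0 in male replicate 1 and 191 to 221.7 in the others, and Klf4 64.3 ± 23.04 FPKM. Sox18 was at 93.3 ± 24.2, Gata2 at 33.6 ± 4.56, Erg at 30.6 ± 3.74, Sox7 at 21.8 ± 6.54, Fli1 at 8.70 ± 1.35 and Tal1 at 6.22 ± 0.826 FPKM. The other factors lay between 5.69 and 12.3 FPKM: Gata6 at 7.33 ± 2.22, Foxp1 at 9.28 ± 1.52, Elf3 at 11.9 ± 3.40, Spi1 at 12.3 ± 3.16 and Runx1 at 5.69 ± 0.951.

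Caveolae, the flask-shaped pits of the plasma membrane, are rich in the cells of the alveolar wall, and the genes of their coat were abundant. Cav1, which the study deletes in some of its other groups, was at 322.5 ± 40.7 FPKM with 284 to 394 over the libraries and a CV of 12.6%, or 7.66% without female replicate 3, at rank 81 of all genes. Its partner Cav2 had 116 ± 18.9 FPKM, and the muscle form Cav3 2.35 ± 0.862. Of the cavins, which stabilise the coat, Cavin1 was at 179 ± 21.9, Cavin2 at 172 ± 62.6, Cavin3 at 23.6 ± 6.58 and the muscle form Cavin4 at 0.634 ± 0.320 FPKM. Ehd2, which restrains caveolae at the membrane, had 81.7 ± 14.7 FPKM and Pacsin2 30.5 ± 3.74. Cavin2 varied most of the abundant members, from 88.8 in female replicate 1 to 268 in female replicate 3.

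Genes tied to pulmonary hypertension, by heritable risk or as regulators of the pulmonary vessels, had a median of 10.0 FPKM over 20 members. Bmpr2, the type II BMP receptor, was at 34.2 ± 8.33 FPKM with 25.6 to 45.2 over the libraries, and its type I partners Bmpr1a and Bmpr1b at 11.5 ± 2.24 and 2.28 ± 0.621. The signal transducers Smad1, Smad5 and Smad9 had 6.08 ± 0.308, 14.6 ± 2.09 and 2.58 ± 1.05 FPKM, and the common Smad4 23.2 ± 4.74. Gdf2, the circulating ligand BMP9 made in liver, was at 0.0302 ± 0.0173. Smad5 lay between 15.2 and 15.8 in 5 libraries and at 10.4 in female replicate 1, and its CV fell from 14.3% to 1.49% without that library.

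The other genes of that list spanned a wide range. Aqp1, a water channel of capillaries, was at 218.4 ± 75.5 FPKM, endothelin-1, Edn1, at 17.6 ± 6.75 and endothelial nitric oxide synthase, Nos3, at 5.66 ± 0.728. The polyamine transporter gene Atp13a3 had 30.01 ± 7.24 FPKM, and was at 15.5 in female replicate 1 and 30.6 to 34.6 in the others. The carboxylase Ggcx was at 17.5 ± 2.18 FPKM, Notch3 at 15.9 ± 4.02, the potassium channel Kcnk3 at 8.58 ± 0.874, Rbpj at 5.11 ± 0.672 and the kinase Eif2ak4 at 3.89 ± 0.309. The channel subunit Abcc8 and the kallikrein Klk1 were at 0.302 ± 0.115 and 0.704 ± 0.248 FPKM. Of the 20 genes 11 were lowest in female replicate 1 and 1 highest, against 35.8% and 36.4% of all genes.

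Genes often used as references for expression were not equally steady. Their CV ran from 5.59% for Pgk1, at 43.4 ± 2.43 FPKM, to 57.4% for Gapdh, which was 22.3% without male replicate 1. Ywhaz at 85.6 ± 8.10, Sdha at 51.8 ± 5.87 and Tbp at 1.96 ± 0.235 FPKM were also below 15%. Actb varied by 26.5% and by 13.1% without female replicate 1, and Rplp0, at 462 ± 70.4 FPKM, by 15.2% and 4.98%. For Sdha and Tbp the CV without that library was 4.01% and 2.64%.

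The other references lay between. Ppia had 123 ± 21.2 FPKM, Hprt 55.3 ± 13.2, Polr2a 21.8 ± 5.87, Gusb 12.5 ± 2.46 and the transferrin receptor Tfrc 11.6 ± 2.08. Gapdh, a glycolytic enzyme usually among the abundant transcripts, read 2.25 ± 1.29 FPKM, from 1.25 to 4.80. It has 18.2% of its windows in common with a total of 74 other genes. Rpl13a, at 8.90 ± 2.92 FPKM, shares 55.2% of its windows, and Pgk1 67.03%. Levels of these 3 genes are therefore uncertain, and the low CV of Pgk1 is that of the fragments that could be placed. Of 591 genes examined, 498 had at most 10% of exon bases and at most 10% of windows in other genes. The levels of the others can be uncertain in the same way, also where this is not stated beside them.

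The ranking of genes was similar between libraries over the whole range of levels, though single genes moved far. Across the 14581 genes at a mean of at least 1 FPKM, Spearman's rho for the 15 pairs of libraries was 0.847 to 0.979 with a median of 0.941. This is a description across genes, which are not independent replicates. Of the first 100 genes of each library, 67 were in the first 100 of all 6, and 144 appeared in at least 1. The rank of Hba-a1 ran from 23 to 2105, that of Igha from 14 to 870 and that of Hbb-bs from 13 to 862. Between 1.27% and 15.8% of genes differed by over 2-fold within a pair, the upper figure in a pair with female replicate 1. Among the other 5 libraries it was at most 3.79%.

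The spread of single genes was moderate. The median CV was 19.99%, with quartiles of 13.1% and 30.2%, and 14.2% without female replicate 1. Genes with a CV under 10% numbered 2065 with that library and 4423 without it. The CV was smallest at middle levels. It was 28.7% at 1 to 2 FPKM, 17.3% at 20 to 30 FPKM and 32.6% for the 25 genes at 1000 FPKM or more. Without female replicate 1 these medians were 22.6%, 11.5% and 18.4%, so that the turn at high levels remained, though smaller. The median counting noise was below the median CV in every bin, at 2.50% and 0.460% in the last 2 of these. For 309 of the 14581 genes the CV was below the noise, and for 932 without female replicate 1.

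**Figure D5:**
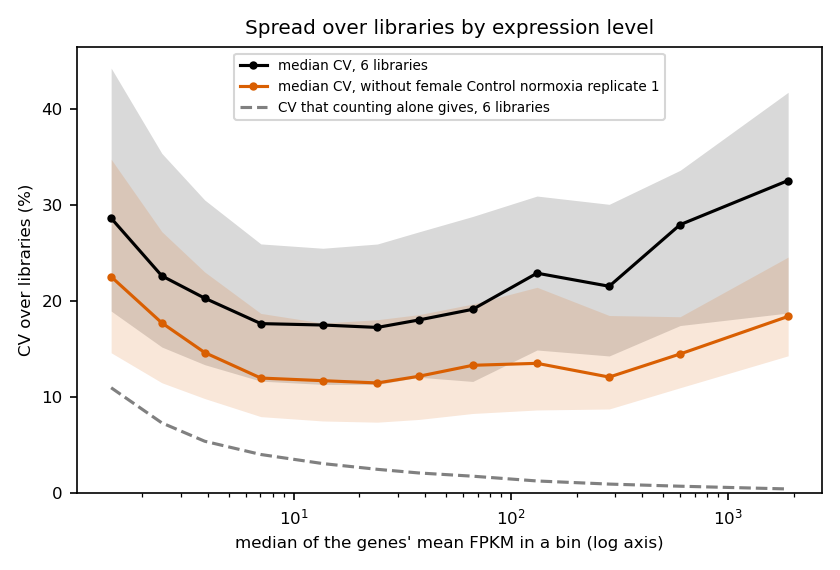
Median CV (percent) over the libraries, with quartiles, against mean FPKM (log axis), for all 6 libraries and without female replicate 1, and the CV from counting noise (dashed). The median falls to 17.3% at 20 to 30 FPKM and rises to 32.6% at 1000 FPKM or more.

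Of the 5050 protein-coding genes at 10 FPKM or more, Ss18, a subunit of a chromatin-remodelling complex, had 22.3 to 23.1 FPKM and the smallest CV, 1.06%, which was below its counting noise of 2.28%. The proteasome subunits Psmd2 and Psmd7 had CVs of 1.63% and 1.97% at 40.7 ± 0.663 and 35.3 ± 0.695 FPKM, and Cnot2, of the deadenylase complex, 2.25%. These CVs were also below their counting noise, of 1.80%, 2.59% and 3.06%. The other 8 of the 12 smallest lay between 2.03% and 2.84%, among them the corepressor subunit Mta2, the helicase Ddx42, the oxidative stress sensor Keap1 and the mitochondrial enzyme Hadha. Of those named, Keap1 was below its counting noise too, and Mta2, Ddx42 and Hadha were above theirs. Only 2 of the 12, Ss18 and Psmd2, were also among the 12 steadiest without female replicate 1. The 12 are the end of a ranking of 5050 genes and are given as a description.

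Of the 12 genes of largest CV, Gbp4, Gbp7, Iigp1, Igtp and Irgm2 encode interferon-induced GTPases of cell-autonomous defence. In male replicate 2 they had 47.0, 41.7, 51.4, 83.1 and 48.5 FPKM, and in the other 5 libraries Gbp4 had 4.41 to 5.96, Gbp7 7.09 to 10.6, Iigp1 3.88 to 10.7, Igtp 10.2 to 12.6 and Irgm2 7.31 to 10.9. No other library came near that one. Igtp and Irgm2 start at nearly the same place on chromosome 11, and fragments over both were not counted.

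The remaining wide spreads were of several kinds. Cd177, a neutrophil surface protein, had 60.2 and 56.2 FPKM in male replicates 1 and 2 and 2.14 to 13.2 in the others. Reg3g, an antimicrobial lectin, was highest in male replicate 2 at 105 FPKM and lowest in female replicate 3 at 4.16. Bpifa1 and Jchain peaked in the libraries already named, with CVs of 138% and 136%. Ddx3y is Y-linked and was high in all 3 males. Gm47283 and Gm21887, predicted genes annotated on the Y and X chromosomes, were highest in female replicate 1 at 53.9 and 85.5 FPKM. Without female replicate 1, 9 of these 12 genes were still among the 12 of largest CV.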

How the data were processed

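Whole-lung poly-A RNA was sequenced as paired reads. According to the methods and the submitters' processing notes, the authors aligned reads with HISAT2 2.0.5 to mm10 and made the deposited count table with featureCounts 1.5.0-p3 at its defaults, which ignore strand and leave out fragments that match several places or lie over more than 1 gene. The authors calculated the deposited FPKM values from these counts, the gene lengths and a library total, and the largest relative deviation of the FPKM from counts rescaled in this way was 7.54e-14. Their annotation release is not given in the sources used here. The 35 samples carry 1 batch label. The column of female replicate 1 is the only one whose name begins with another letter than the other 34, and what the letter stands for is not given in the sources used here. According to the methods 1 RNA sample was left out by the study for its integrity.

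Of the tables, the 6 normoxic Control columns were used and the other 29 sample columns were not. No group was compared, and the only test was Dixon's for a library far from the others. Means, SDs, ranks, shares and CVs were computed with Python 3.11.15 and pandas 2.3.3, noise CVs from the Poisson variance of the counts, and scaling factors for alternatives with R 4.3.3, edgeR 4.0.16 and DESeq2 1.42.0. The code was tested on simulated data. Depth was 14037441 to 21724288 fragments per library, and counting noise sets the precision given beside the CVs. Overlap with other genes was measured on GENCODE vM21 exons and in 100-base windows of its transcripts. Promoters came from RefSeq on GRCm38.p6, with 16492 of 22016 protein-coding names matched.

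Genes were named by rule: the 30 of highest mean FPKM, the leading members of each gene type and list, the 12 of largest and the 12 of smallest CV among protein-coding genes at 10 FPKM or more, and the families. Not all genes that the rule reaches are printed, and others, such as Slc34a2, Muc1, Eng, Glp1r, Cd79a or Npnt, were chosen after their values were seen. The libraries and lists were chosen with earlier results of these data known. Alternatives covered the summary, the thresholds, the units and leaving out each library.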

Additional observations from a re-analysis of the deposited data

Results flagged for a closer look

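For 192 values (128 named genes, 11 library totals and 53 list sums) the gap between the highest or lowest library and its neighbour was divided by the range of all 6. It passed the 95% critical value of Dixon's test for 6 samples for 37 of them. Chance gives about 1 in 20 for values that were not chosen for their spread, and that rate does not apply here, since 9 of the 37 are among the 12 genes named for the largest CV. Of these, 24 pointed to female replicate 1, 7 to male replicate 1, 5 to male replicate 2 and 1 to female replicate 3. Many of these values share libraries and are not independent.

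Female replicate 1 was the highest for Gm23935 (0.842), the calcification inhibitor Mgp (0.824), Bpifa1 (0.812), Rplp1 (0.776), Cavin3 (0.746), Gm47283 (0.736), Sox18 (0.730), Gm21887 (0.710), Rplp0 (0.705) and Tmsb4x (0.701). The same held for 4 mitochondrial genes, mt-Nd6 (0.696), mt-Cytb (0.671), mt-Nd4 (0.668) and mt-Nd1 (0.653). It was the lowest for Smad5 (0.893), Atp13a3 (0.793), Tbp (0.777), Runx1 (0.762) and Sdha (0.628). Its share of FPKM in ribosomal protein genes, 5.42% against 4.23% to 4.50%, had a gap of 0.773, and its number of genes at 100 FPKM or more, 460 against 357 to 381, a gap of 0.767. The sums highest in it were those of the adipocyte list (0.710), of the neuroendocrine list (0.705) and of the adventitial fibroblast list (0.650).

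Male replicate 1 was the highest for Jchain (0.798), Igkc (0.746) and Gapdh (0.740), for the plasma cell list (0.754), for the eosinophil list (0.753) and for the share of FPKM in immunoglobulin genes (0.831), and the lowest for Klf2 (0.803). In the eosinophil list, Prg2 was at 7.07 FPKM in it and at 0.502 to 1.69 in the others, while Epx and Ccr3, which define eosinophils, had 0.0197 ± 0.0220 and 0.0437 ± 0.0283. Male replicate 2 was the highest for the interferon-induced GTPases Igtp (0.966), Gbp4 (0.964), Irgm2 (0.912), Gbp7 (0.899) and Iigp1 (0.858). Female replicate 3 was the highest for Ywhaz (0.657). No cause was tested for any of these.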

How the results depend on the processing

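Of 80 recomputed summary values, 73 were called the same and 7 moved. A share, correlation or CV was called moved if it changed by at least the spread between libraries or their pairs. A count was called moved if it changed by over 1.5 times. When counts were not divided by length, the first 10, 100 and 1000 genes held 8.78%, 19.7% and 46.8% of the total in place of 29.6%, 44.0% and 66.1%. When only genes of at least 500 bases were kept, which leaves out Scgb1a1 at 476 bases, they held 14.02%, 31.1% and 58.6%. At a mean of at least 10 FPKM the median rank correlation was 0.863 in place of 0.941, by construction over a narrower range of levels. Leaving out each library in turn gave 14548 to 14617 genes at 1 FPKM or more, 27.9% to 31.1%, 42.4% to 45.4% and 64.8% to 67.1% for the first 10, 100 and 1000 genes, a median rank correlation of 0.938 to 0.958, 67 to 75 genes in every first 100 and a median CV of 14.2% to 21.4%, the lowest without female replicate 1. The count of cell type lists at 10 FPKM or more was 16 in each case. Of 530 recomputed list levels 470 moved by less than the spread between libraries and 60 by more. Of the 60, 26 and 25 had the median replaced by a log2-scale mean over libraries and members, with 1 and with 0.1 added. No paired analysis was possible because no groups were compared. Depth limits mainly the genes near 1 FPKM, where counting noise is largest, and genes with shared sequence are limited by the counting at any depth.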

Other observations

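The study's files name a family for 1451 protein-coding transcription factors. Of these 845 had a mean of at least 1 FPKM, 233 of at least 10 and 7 of at least 100, with a median of 5.18 FPKM among the 845 against 7.49 for all protein-coding genes at 1 FPKM or more. After Hopx at 354 FPKM came the cold-shock protein Ybx1 at 280 ± 40.5, Klf2, Tbx2, Foxf1, the inhibitor of differentiation Id3 at 106 ± 30.2 and the AP-1 subunit Jun at 105 ± 20.9 FPKM. The files give Epas1 no such family, so that its 538 FPKM is not in this order.

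Immediate early genes, which are induced within minutes of stress or handling, had a list median of 30.8 FPKM. Fos ran from 6.55 to 25.4 FPKM, Egr1 from 4.97 to 36.2 and Nr4a1 from 5.61 to 55.1. The list's sum was lowest in male replicate 1, at 312 FPKM, and 437 to 646 in the others. Dusp1, a phosphatase induced with them, had 46.3 FPKM in that library and 92.6 to 167 in the others.

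Circadian clock genes had a median of 15.4 FPKM and a summed CV of 13.7%, or 7.28% without female replicate 1. Arntl, the activating arm of the clock, was at 0.772 ± 0.207 FPKM, and the genes it activates were higher, with Nr1d1 at 71.0 ± 13.6, Tef at 61.8 ± 11.2, Dbp at 43.0 ± 9.60 and Per1 at 40.05 ± 9.25. Proliferation genes were low, with a median of 1.09 FPKM. Mki67 and Top2a had their 2 highest values in male replicates 1 and 2, at 4.03 and 3.09 and at 2.73 and 2.12 FPKM, against at most 1.45 and 1.00 in the others. Of the aquaporins, Aqp1 and Aqp5 were above 100 FPKM, Aqp4 was at 3.26 ± 1.45, Aqp3 at 1.13 ± 0.405 and the other 4 were under 1.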
